A study of Homo sapiens with 10 samples.

Results

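The 9 genes described here encode cohesin subunits (STAG1, RAD21, SMC3), the cohesin loader (NIPBL, MAU2), cohesin regulators (WAPL, PDS5A, PDS5B) and CTCF. They were chosen by name, 9 of the 19974 protein-coding genes in the annotation used, and a region was counted for a gene when it lay in the RefSeq gene body or within 50 kb of either end. ATAC-seq, which marks accessible DNA by letting a transposase cut it and add adapters, was run on DLD-1, an established human colorectal adenocarcinoma cell line. The study asked what the transcription factor GATA6 does in these cells, and its 10 libraries form 5 groups of 2. Overlapping or touching peaks were merged into regions, and a library was said to call a region where at least 1 bp of a peak of that library lay in it. At the 9 genes this gave 105 of 120452 regions over the 6 lists of the degron line, 129 of 157584 over the 4 KO and WT lists, and 137 of 168719 over all 10 lists.

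Auxin-treated cells (AID_aux) carried GATA6 fused to an auxin-inducible degron, with the labelled genotype GATA6-AID-IAA7, and had 12 h of auxin. Washed-out cells (AID_wash) were of the same line and have a time label of 1 with no unit. The control of the line (AID_ctrl) carried the same fusion, and its labels give auxin with a time of 0 h, which was read as untreated. GATA6-KO cells (KO) had GATA6 disrupted by CRISPR/Cas9, and unedited DLD-1 cells (WT) were set beside them. The protocol gives 500 µM of the auxin IAA and 50000 viable cells, and it speaks of positive clones of the degron line. How many clones stand behind a group, and whether the 2 libraries of a group came from separate cultures, the labels do not say, so the spread between libraries may be technical.

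Cohesin is a ring-shaped complex that holds sister chromatids together and extrudes DNA into loops. SMC1A and SMC3 form the long arms of the ring, RAD21 closes it, and STAG1 or STAG2 binds to RAD21 and helps the ring to dock on chromatin. NIPBL, held by its partner MAU2, loads cohesin on DNA and drives extrusion. WAPL opens the ring and lets it leave, PDS5A and PDS5B bind to RAD21 and take part in both release and protection, and CTCF is a zinc-finger protein that binds DNA and halts the moving ring, which sets loop and domain borders. In colorectal tumours, genes of this machinery, NIPBL and SMC3 among them, are known targets of mutation.

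The WAPL promoter is printed because its strongest ATAC summit, the point of highest signal in a peak, lay in the same short stretch in all 6 lists of the degron line, and the STAG1 promoter because STAG1 held the region that changed most clearly. Both run 5′ to 3′ on the minus strand, from 250 bases before the gene start to 50 after it, from RefSeq on GRCh38.p14. WAPL lies at chr10:86521743-86522042, with the span of the 6 summits in capitals, and STAG1 at chr3:136752329-136752628, with a match to the core word of the CTCF motif, CAGNGGGCG, in capitals.
WAPL: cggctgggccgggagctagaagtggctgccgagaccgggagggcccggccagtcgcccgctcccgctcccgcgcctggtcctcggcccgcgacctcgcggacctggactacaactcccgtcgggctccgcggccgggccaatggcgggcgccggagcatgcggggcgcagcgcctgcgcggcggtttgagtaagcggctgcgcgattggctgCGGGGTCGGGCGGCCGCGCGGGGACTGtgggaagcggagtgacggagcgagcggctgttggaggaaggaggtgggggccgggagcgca
STAG1: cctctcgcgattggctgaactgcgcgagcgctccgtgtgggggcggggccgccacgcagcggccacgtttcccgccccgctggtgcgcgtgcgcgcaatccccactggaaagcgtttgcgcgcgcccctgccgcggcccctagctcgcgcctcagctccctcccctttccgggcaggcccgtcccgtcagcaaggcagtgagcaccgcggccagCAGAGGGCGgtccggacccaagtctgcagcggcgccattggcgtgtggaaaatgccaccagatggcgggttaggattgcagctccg

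Matches to the YY1 word AANATGGCG, read on both strands, were present in 4 of the 8 promoters read from RefSeq (all of the 9 genes but RAD21), namely SMC3, PDS5B, CTCF and MAU2, against 4.82% of 15813 protein-coding promoters of the same length. YY1 is a zinc-finger factor that binds near many gene starts. The matches are shown in capitals with 10 bases on either side, on the plus strand, at chr10:110567676-110567704 for SMC3, chr13:32586441-32586469 for PDS5B, chr16:67562542-67562570 for CTCF and chr19:19320847-19320875 for MAU2. In SMC3, PDS5B and CTCF the word is on the opposite strand, and in MAU2 it is on the gene's own strand.
SMC3: ccacgagcgcCGCCATTTTgtttggctga
PDS5B: gagcgcttggCGCCATTTTgaagcggaga
CTCF: accgcgccgcCGCCATTTTgtgtctgagc
MAU2: tgtggaggccAAAATGGCGgctcaggcgg

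The CTCF core word CAGNGGGCG was found in 2 of the 8 promoters, STAG1 and PDS5B, against 7.08% of protein-coding promoters. Its first base lay 36 bases before the STAG1 start and 92 bases before the PDS5B start (offsets -36 and -92). The PDS5B copy is at chr13:32586350-32586378 on the plus strand, with the word in capitals.
PDS5B: gtctggtcggCAGGGGGCGctgcgcaccc

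Among the other words searched, GATAA, the core of GATA factor motifs, was in PDS5A, CTCF and MAU2, 3 of 8 against 18.2% of protein-coding promoters. The NRF1 motif core was in STAG1 and WAPL (8.59% of all), the NF-Y word CCAAT in 4 of 8 (36.3%), the SP and KLF word GGGGCGGGG in 2 (22.4%), the ETS word CCGGAAG in NIPBL alone of the 8 (14.2%), and TATAAA in 0 (9.64%). None of the 21 matches overlapped another. The words were chosen after the sequences had been read, and a match describes letters, not bound protein. The 8 promoters held between 56.0% (SMC3) and 76.3% (WAPL) G and C, against a median of 62.7% over protein-coding promoters. The step from C to G occurred between 23 (SMC3) and 46 (CTCF) times in them, against a median of 22. Several of the words, that of YY1 among them, contain this step, and the shares over all promoters were not matched for base content.

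The lists held 173618 and 199036 peaks in AID_aux, 154537 and 180018 in AID_wash, 179405 and 191535 in AID_ctrl, 116626 and 130807 in KO and 66078 and 93104 in WT. The files hold no reads, so depth is unknown, and a region missing from a list lay below the peak caller's threshold there, which is not the same as closed. In these bulk libraries, fewer cells with an open region and less opening per cell cannot be told apart. Among starts of epithelial and intestinal marker genes, 7 of 10 were called in all 10 libraries, and the other 3 (VIL1, CEACAM5, CDX1) in 7 to 9. Of the 15813 protein-coding starts with a strand, 58.0% were called in all 10 libraries, so that count alone says little about cell type. The endothelial markers KDR and TEK were called in 0 libraries and PECAM1 and CDH5 in 1, the blood markers PTPRC in 1 and CD3E and SPI1 in 10, and the fibroblast markers COL3A1 in 0, DCN in 3, COL1A2 in 8 and COL1A1 in 10. Peak lists do not measure GATA6 protein or the edit, so the labels could not be checked by the targeted gene.

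The starts of all 9 genes were open in every condition measured. Within 1 kb of each start a region was called in all 10 libraries, which was true of 58.0% of the 15813 protein-coding genes whose strand is in the tables. For RAD21, whose strand is not in those tables, the higher-coordinate end, 116874776 on chromosome 8, was taken as the start, and no region was called within 1 kb of its other end. In a window of 250 bp on either side, 7 of the 9 starts were still called in all 10 libraries, RAD21 in 9 (not in KO replicate 2) and PDS5A in 7 (not in either KO library nor in WT replicate 1).

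Signal at the starts is given as the authors' fold enrichment of the most significant summit, a value of its own list that was not compared between lists as a change. MAU2, the small partner that keeps NIPBL stable, had 14.4 and 13.3 in AID_aux, 12.4 and 14.4 in AID_wash and 13.5 and 13.8 in AID_ctrl. SMC3, an arm of the ring, had 11.1 and 11.4 in AID_aux, 13.0 and 11.2 in AID_wash and 11.5 and 11.7 in AID_ctrl. WAPL, the release factor, had 11.7 and 10.8 in AID_aux, 10.2 and 12.1 in AID_wash and 12.3 and 11.4 in AID_ctrl. These 3 genes held the 3 highest places among the 9 in all 6 lists, with MAU2 first in 5 and SMC3 first in AID_wash replicate 1. The MAU2 start region also covers an end of the neighbouring gene SUGP1, so its value belongs to both genes.

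RAD21, which closes the ring, had 8.83 and 8.30 in AID_aux, 9.70 and 8.86 in AID_wash and 10.5 and 9.71 in AID_ctrl. STAG1, the subunit that binds RAD21, had 8.68 and 9.17 in AID_aux, 9.30 and 8.82 in AID_wash and 8.95 and 7.61 in AID_ctrl. NIPBL, the loader, had 8.10 and 7.85 in AID_aux, 8.97 and 7.36 in AID_wash and 8.31 and 7.66 in AID_ctrl. The AID_aux and AID_ctrl values overlapped at STAG1, NIPBL, MAU2 and WAPL. At RAD21 both AID_aux values lay below both AID_ctrl values, and so did they, by a small margin, at SMC3; since each list was scaled on its own, no change is read from this.

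The PDS5 genes and CTCF stood lowest of the 9 by mean fold over the 6 lists, though not in every list. PDS5A had 8.49 and 7.95 in AID_aux, 7.85 and 6.87 in AID_wash and 7.19 and 7.50 in AID_ctrl. PDS5B had 7.95 and 5.66 in AID_aux, 8.17 and 7.74 in AID_wash and 8.31 and 8.28 in AID_ctrl. Its 7.95 in AID_aux replicate 1 came from a second region that begins 560 bp inside the gene. In the region over the PDS5B start that library had 5.65, and the other values of PDS5B are from this start region. CTCF had 7.85 and 7.09 in AID_aux, 7.15 and 8.63 in AID_wash and 7.01 and 8.18 in AID_ctrl. Both AID_aux values lay above both AID_ctrl values at PDS5A and below them at PDS5B, and the groups overlapped at CTCF. The PDS5A value of AID_ctrl replicate 2 is from another summit than its other values. No change is read from these splits either, and the share of all starts that split in this way was not counted. The lowest value of a most significant summit was that of PDS5B in AID_aux replicate 2, where its start peak ranked at the 63.2 percentile of the list by −log10 p. By mean fold the order ran MAU2, SMC3, WAPL, RAD21, STAG1, NIPBL, PDS5B, CTCF and PDS5A, and several neighbours could not be ordered. SMC3 exceeded WAPL in 3 of 6 lists, NIPBL exceeded PDS5B in 3 and CTCF exceeded PDS5A in 2, while WAPL exceeded RAD21 in 6 of 6.

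**Figure D1:**
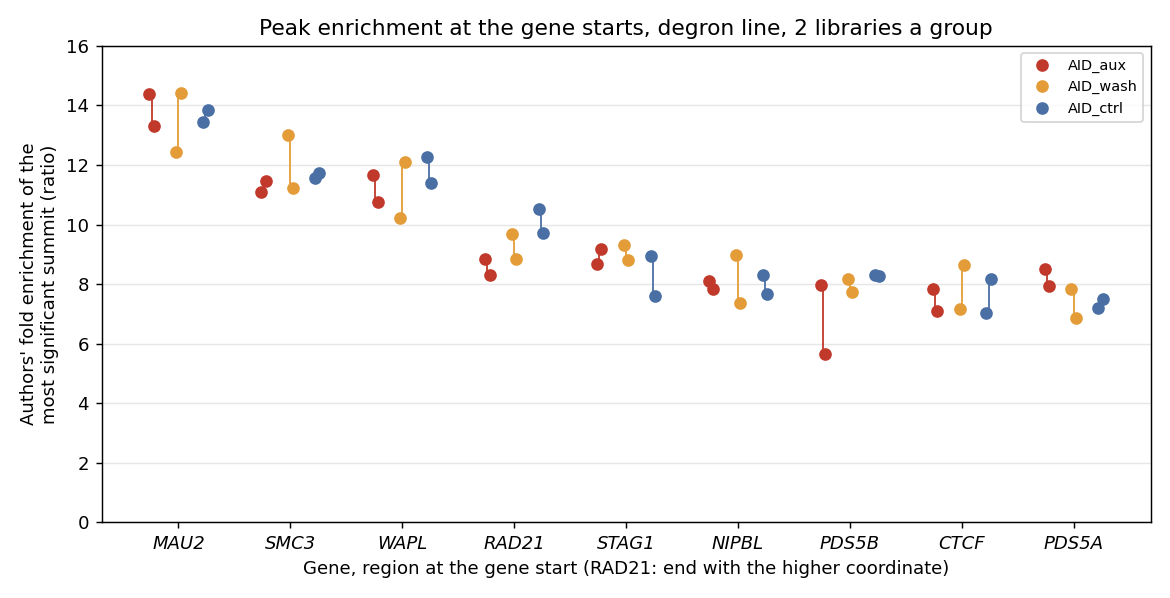
Fold enrichment (ratio), as the authors deposited it, of the most significant summit in the start region of each gene (vertical axis, linear) in the 6 libraries of the degron line, with groups in the order AID_aux, AID_wash and AID_ctrl each point a library and a line joining the 2 libraries of a group. MAU2, SMC3 and WAPL lie above 10 in every library, and PDS5B in AID_aux replicate 2 is the lowest point at 5.66. The PDS5B point of AID_aux replicate 1 is from a second region inside the gene, and the region over the start had 5.65 there.

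Ranked inside each list by −log10 p, the start peaks were among the more significant ones. STAG1 lay between the 94.0 and 97.7 percentile over the 6 lists, SMC3 between 94.6 and 97.8, MAU2 between 96.2 and 99.6 and WAPL between 92.4 and 98.1. CTCF ranged between 85.6 and 94.6, NIPBL between 85.6 and 92.0, PDS5A between 77.1 and 89.0, RAD21 between 76.5 and 85.8 and PDS5B between 63.2 and 84.8. Over the 9853 protein-coding starts called in all 6 lists the median of the mean percentile was 90.3, and over the 8 genes with a strand it was 92.9. Open starts in the upper part of the list are therefore common in these cells, and the 9 genes were spread over that distribution: 92.7% of those starts ranked below MAU2 and 24.1% below PDS5B.

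The summit nearest to the start lay just before it at most of the genes. At WAPL it was 12 to 38 bases before the start in the 6 lists (offsets -38 to -12, the capitals in the WAPL sequence above), and it was also the most significant summit there. The same offset was -66 to -54 at STAG1, -35 to -15 at MAU2, -26 to -1 at SMC3 and -77 to -6 at NIPBL. At PDS5A it was -119 to 33. The most significant summit often lay farther off: at CTCF it was at -458 to -334, at NIPBL at -800 to -6, and at PDS5A 1346 to 1351 bp inside the gene in 5 lists and 243 bp inside in AID_ctrl replicate 2.

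Away from the starts the genes differed in how many regions surround them. CTCF had 20 regions over the 6 degron lists and 11.3 per 100 kb, MAU2 14 and 10.2 per 100 kb, and SMC3 13 and 9.40 per 100 kb. RAD21 had 8 regions (6.21 per 100 kb), WAPL 9 (4.82), PDS5B 12 (4.12), PDS5A 10 (3.92), NIPBL 7 (2.42) and STAG1 12 (2.32), against a median of 6.80 per 100 kb over protein-coding genes. STAG1, 416143 bp long, is the longest of the 9. The CTCF window holds 7 other protein-coding genes, and 82.6% of protein-coding genes had fewer regions per 100 kb. RAD21 and WAPL have no other protein-coding gene in theirs. Of the 105 regions, 35 lay in the bodies of the 9 genes, 10 at their starts and 7 at ends of other genes.

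Each gene had a strong region outside its start, and all 9 of these were called in all 10 libraries. At WAPL it lay 12988 bp before the start, at chr10:86534780-86536118, with fold enrichments of 16.3 and 15.7 in AID_aux, 19.3 and 16.5 in AID_wash and 17.4 and 18.1 in AID_ctrl. At STAG1 it lay inside the gene near its far end, at chr3:136343475-136344716, with 16.9 and 14.4 in AID_aux, 14.7 and 19.1 in AID_wash and 16.3 and 16.8 in AID_ctrl. NIPBL had its own inside the gene at chr5:37001445-37002788, with 13.4 and 10.9 in AID_aux, 17.1 and 17.4 in AID_wash and 15.1 and 16.6 in AID_ctrl. At STAG1 the groups overlapped, and at WAPL and NIPBL both AID_aux values were below all 4 others, again across separately scaled lists. No change is read from this, and the share of all regions with such a split was not counted.

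The corresponding regions averaged 15.7 at RAD21 (chr8:116832814-116833817), 15.1 at PDS5B (chr13:32537804-32539610, over an end of N4BP2L2), 13.2 at PDS5A (chr4:39970549-39971753, inside the gene), 11.9 at CTCF (chr16:67683296-67684633, inside GFOD2), 11.2 at MAU2 (chr19:19366448-19367203) and 10.1 at SMC3 (chr10:110529843-110531330). At 7 of the 9 genes this region had a higher fold than the start in all 6 lists. SMC3 showed that in 1 list and MAU2 in 0. Because the region was picked as the most significant one outside the start, the choice itself favours a high fold. How often other genes show the same was not counted.

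Over all 10 lists, 41 of the 137 regions (29.9%) were called in every library, against 26.8% of all regions. Of the 41, 14 lay within 1 kb of where a protein-coding gene begins or ends (34.1%, beside 25.0% of all regions called in every library), and 9 of these were the starts of the 9 genes. MAU2 and CTCF had 8 regions each that were called throughout, SMC3 6, WAPL and PDS5B 4 each, STAG1, RAD21 and PDS5A 3 each and NIPBL 2.

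The number of called regions per library followed the lists. Over the 9 genes there were 84 and 75 in AID_aux, 69 and 80 in AID_wash and 79 and 76 in AID_ctrl, and 101 and 95 in KO against 69 and 56 in WT. The groups of the degron line overlapped and KO lay above WT, as in the whole lists, with 129296 and 114999 regions in KO against 90360 and 63870 in WT.

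Per gene, STAG1 had 10 and 8 regions in AID_aux, 8 and 11 in AID_wash and 9 and 9 in AID_ctrl. CTCF had 15 and 14 in AID_aux, 15 and 15 in AID_wash and 15 and 16 in AID_ctrl. PDS5B had 10 and 8 in AID_aux, 6 and 7 in AID_wash and 7 and 7 in AID_ctrl, and thus more in both AID_aux libraries than in either other group. MAU2 had 13 in each AID_aux and AID_wash library and 12 in each AID_ctrl library. WAPL had 5 and 7 in AID_aux, 4 and 5 in AID_wash and 7 and 6 in AID_ctrl, fewer in both AID_wash libraries than in AID_ctrl.

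Against AID_ctrl, AID_aux was thus higher in both libraries at 2 of the 9 genes (PDS5B and MAU2), a pattern that 9.92% of 19305 protein-coding genes showed, and lower at 0 (6.16%). AID_wash was lower than AID_aux at PDS5B alone of the 9 (15.5% of protein-coding genes) and higher at 0 (1.63%). Against AID_ctrl, AID_wash was higher at 1 of the 9, MAU2 (1.56%), and lower at 1, WAPL (12.6%). With 2 libraries a group these are counts of non-overlap and no p below 0.333 can be reached by a two-sided exact permutation test.

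In KO the number was above WT in both libraries at 8 of the 9 genes, against 65.3% of 19544 protein-coding genes, and below WT at 0 (1.13%). CTCF had 18 and 18 in KO against 15 and 9 in WT, PDS5B 12 and 13 in KO against 6 and 4 in WT, and NIPBL 9 and 10 in KO against 4 and 4 in WT. RAD21 had 9 and 6 in KO against 3 and 5 in WT, SMC3 13 and 11 in KO against 10 and 9 in WT, and MAU2 14 and 15 in KO against 13 and 9 in WT. WAPL had 7 and 6 in KO against 4 and 4 in WT, and PDS5A 7 and 7 in KO against 6 and 3 in WT. STAG1 was the exception, with 12 and 9 in KO against 8 and 9 in WT. The KO lists were longer than the WT lists over the whole genome, and the part of list length in these counts was not tested.

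**Figure D2:**
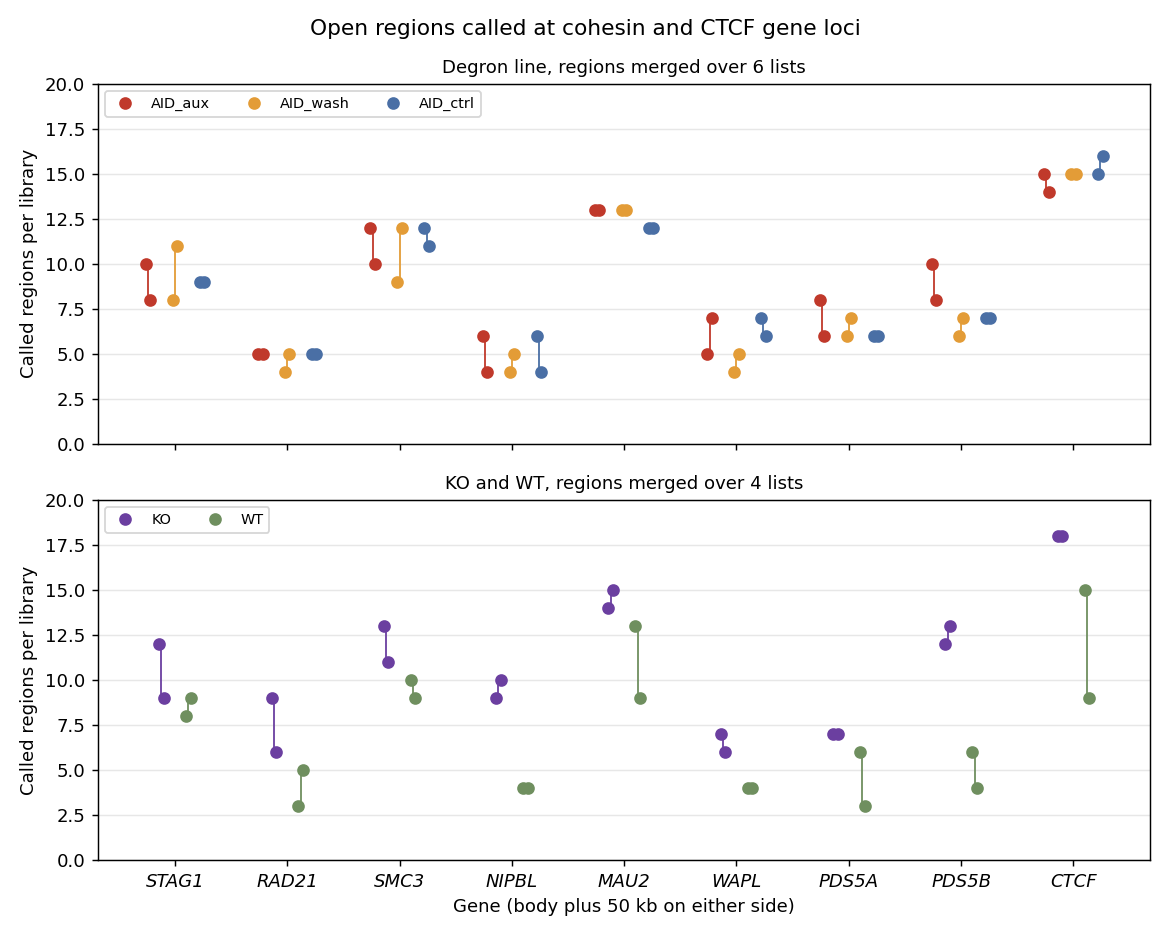
Number of regions called at each gene (vertical axis, linear, regions in the gene body or within 50 kb) in each of the 10 libraries, with the degron line merged over 6 lists and KO and WT over 4; a line joins the 2 libraries of a group. KO points lie above WT points at every gene except STAG1, where 9 regions were called in KO replicate 2 and in WT replicate 2.

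The comparison of AID_aux with AID_ctrl asks which regions opened or closed when GATA6 was degraded. A region is called lost where both control libraries call it and neither AID_aux library does, and gained in the reverse case. Of 98 regions called in at least 1 of the 4 libraries, 2 were lost (2.04%, against 2.36% of all regions), both inside STAG1, and 1 was gained (1.02%, against 2.58%), near MAU2. The other regions were retained in all 4 libraries (65, or 66.3%, against 59.6% of all) or called in some other mixture (30, or 30.6%, against 35.5%). At RAD21, SMC3, NIPBL, WAPL, PDS5A, PDS5B and CTCF, 0 regions were lost and 0 gained. More regions than these split a pair of replicates. Of the 105, 19 split the AID_aux pair (18.1%, against 20.9% of all regions) and 15 the AID_ctrl pair (14.3%, against 18.8%). A split needs 1 pair to differ, whereas a loss or gain needs each pair to agree within itself, so these are unlike events. Fixed 500-bp windows in place of merged regions gave 5 lost and 7 gained. The share over all windows was not counted in any comparison.

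The lost STAG1 region, chr3:136703213-136704163, is 951 bp long and lies inside the gene, 48215 bp from the start. Neither AID_aux library called it. AID_wash replicates called it at fold enrichments of 6.31 and 9.29 and AID_ctrl replicates at 8.53 and 8.55. Its −log10 p was 10.6 and 22.4 in AID_wash and 18.3 and 16.9 in AID_ctrl, where it stood at the 56.4 and 55.2 percentile. Of the 2729 regions lost over the genome, 190 (0.165% of all regions) were in the upper 50% of both AID_ctrl lists, and this was the single one at the 9 genes. Of the gains, 10 over the genome (0.00866%) met that limit and 0 at the 9 genes.

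In KO and WT the same place showed the same split of the groups. Neither KO library and both WT libraries called it, as windows that merge to chr3:136703257-136703802. A region called in both AID_ctrl, both AID_wash and both WT libraries and in no AID_aux or KO library was found 157 times among the 120452 regions, and once (1 of 105) at the 9 genes. The pattern is the one this STAG1 region showed, so its presence at the 9 genes was given beforehand and is no separate result. AID_aux is set against both AID_ctrl and AID_wash in this count, so those contrasts share libraries, whereas KO and WT share none with the degron line.

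**Figure D3:**
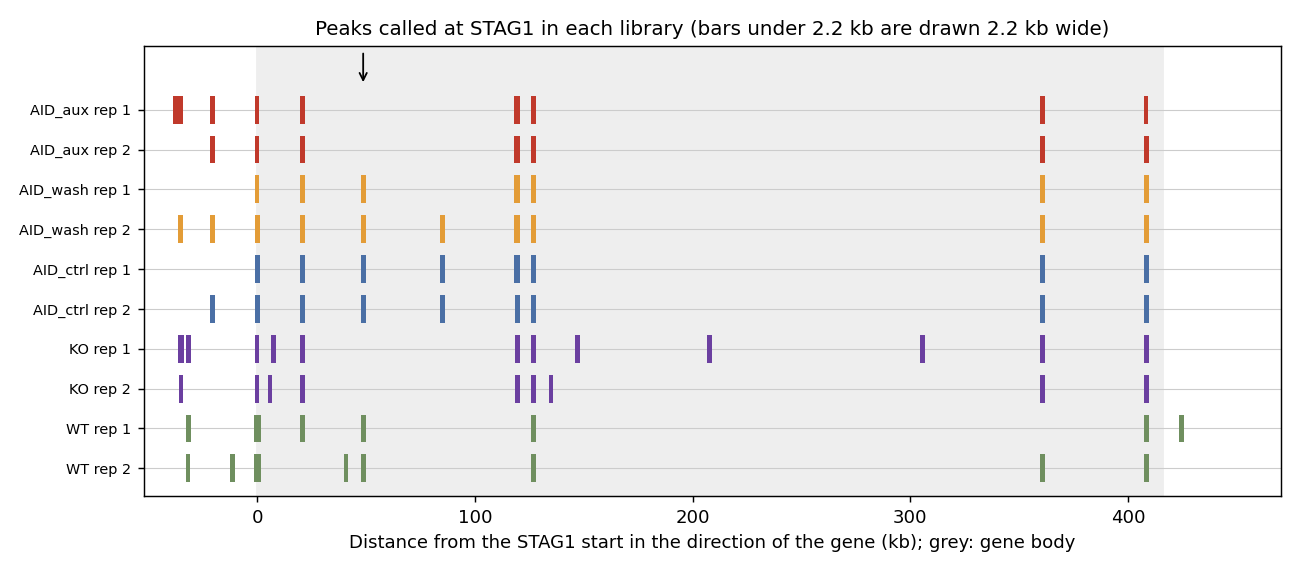
Called peaks along STAG1 in the 10 libraries (rows, with AID_aux above AID_wash above AID_ctrl, and KO above WT; gene body in grey, bars drawn wider than the peaks) against the distance from the gene start in kb, positive into the gene. The region 48.2 kb inside the gene, under the arrow, is present in the AID_wash, AID_ctrl and WT rows and missing from the AID_aux and KO rows, while the start and the far-end region are present in every row.

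A weaker STAG1 region, chr3:136667188-136667415, lies 84963 bp inside the gene. Neither AID_aux library called it, AID_wash replicate 2 did at 3.85, and AID_ctrl called it at 6.94 and 4.88. The gained region, chr19:19403305-19403673, is 369 bp long and lies inside GATAD2A, 82476 bp from the MAU2 start. It had 2.99 and 3.63 in AID_aux and 2.84 and 2.85 in AID_wash, and AID_ctrl did not call it. Both KO libraries and WT replicate 1 called it as well.

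Washout was compared with the auxin-treated cells to ask which changes went back. Of 99 regions called in at least 1 of the 4 libraries, 2 were lost in AID_wash against AID_aux (2.02%, against 3.48% of all regions) and 1 was gained (1.01%, against 1.21%). The gain was the STAG1 region at 48215 bp. In the upper 50% of both calling lists, 0 of the losses (0.00892% of all regions) and 0 of the gains (0.0722%) lay at the 9 genes. The losses lay at the far side of the WAPL window, chr10:86385947-86386347, with 6.05 and 5.24 in AID_aux, and inside PDS5B, chr13:32669052-32669301, with 4.03 and 4.37 in AID_aux. AID_ctrl called the WAPL region in both libraries (5.12 and 4.07) and the PDS5B region in replicate 2 alone (4.07). The AID_wash pair split at 21 of the 105 regions, again more than the number that changed. Fixed windows gave 7 lost and 3 gained.

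AID_wash was compared with AID_ctrl over 97 regions. Here 3 were lost (3.09%, against 2.67% of all regions) and 1 was gained (1.03%, against 0.685%). WAPL held 2 of the losses: the region above, and chr10:86473465-86474526 inside the gene, called at 5.85 and 4.48 in AID_ctrl and at 3.93 in AID_aux replicate 2. The other loss, chr4:39815154-39816117, lay 6746 bp beyond the far end of PDS5A, with 3.73 and 4.15 in AID_ctrl and 3.89 in AID_aux replicate 1. The gain was the MAU2 region inside GATAD2A described above. Of these 3 losses, 0 were in the upper 50% of both AID_ctrl lists (0.00643% of all regions). Fixed windows gave 10 lost and 5 gained.

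KO was compared with WT to ask what differed when GATA6 was disrupted by editing. Of 129 regions, 25 were gained in KO (19.4%, against 19.5% of all regions) and 3 were lost (2.33%, against 1.24%). A further 42 were retained (32.6%, against 31.9% of all) and 59 were mixed (45.7%, against 47.3%). The share gained at the 9 genes was thus close to that of the genome. The KO pair split at 34 regions (26.4%, against 19.2% of all regions) and the WT pair at 29 (22.5%, against 30.3%). Fixed windows gave 54 gained and 10 lost, and the share over all windows was not counted.

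NIPBL and PDS5B gained 5 regions each, CTCF 4, MAU2 3, STAG1, RAD21, SMC3 and WAPL 2 each and PDS5A 0. The gain nearest to a start was at NIPBL, chr5:36875167-36875690, 1079 bp before it (offset -1079). All 6 degron lists called it, at 3.33 and 3.17 in AID_aux, 2.54 and 2.65 in AID_wash and 2.53 and 2.91 in AID_ctrl, which are low values for those lists. MAU2 gained chr19:19311789-19312397, SMC3 gained chr10:110547116-110547635, 20060 bp before its start (offset -20060), and CTCF gained chr16:67541420-67541926 and chr16:67527858-67528808 on the side of RIPOR1. Both WAPL gains in KO overlap regions that AID_wash lacked against AID_ctrl.

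The 3 losses in KO were at STAG1 and SMC3. STAG1 lost the region 48.2 kb inside the gene and chr3:136751253-136752016, which starts 362 bp inside the gene. At the start itself both KO libraries had 1 window and both WT libraries 2, so the loss is the inner window of a start region that stayed open, and all 6 degron libraries called it. SMC3 lost chr10:110544926-110545450, 22245 bp before its start (offset -22245). KO and WT lists give windows of 500 bp with no score, so no strength can be set beside these calls.

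**Figure D4:**
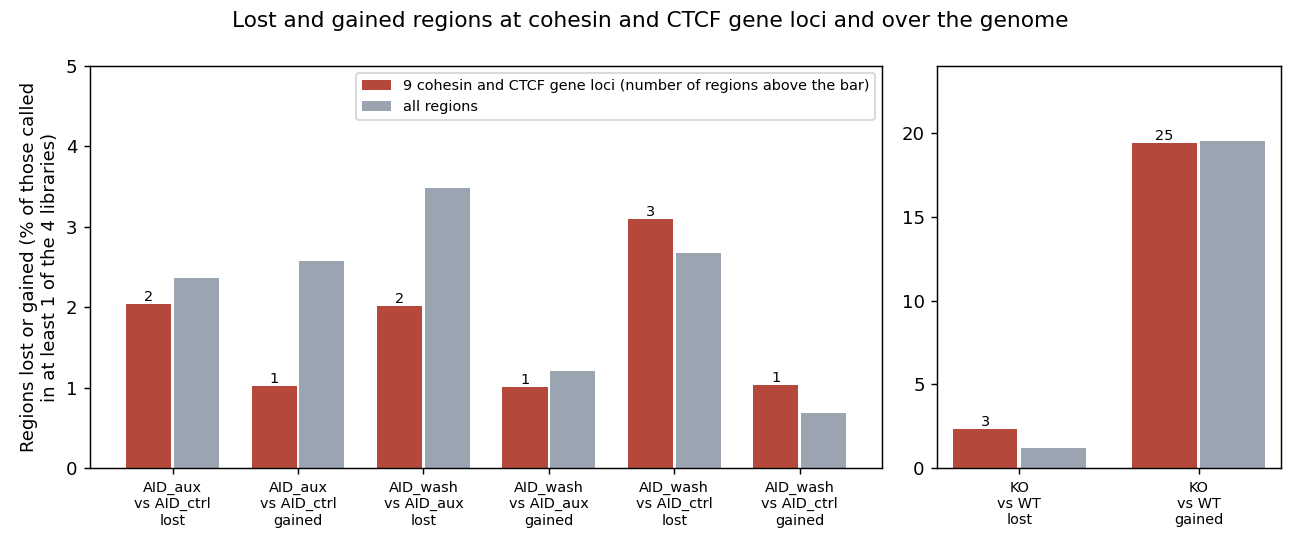
Share of called regions (vertical axis, percent, linear, with a wider range in the KO panel) that were lost or gained in each comparison at the 9 genes, beside the share over all regions; the number above a bar is the count of regions. KO against WT gained 19.4% at the 9 genes and 19.5% over all regions, and the shares within the degron line lie between 1.01% and 3.09% at the 9 genes.

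Of 18 other genes of the pathway, which cover further subunits, regulators and factors that act with CTCF or at loops, 16 had a start region called in all 10 libraries. The share over the 15813 protein-coding genes with a strand was 58.0%. REC8, a cohesin subunit of meiosis, and CTCFL, the germline paralogue of CTCF, were called in 0 libraries. Other cohesin genes of meiosis in the list, STAG3, SMC1B and RAD21L1, had starts called in all 10. For ESCO1 and ESCO2, acetyltransferases that act on SMC3, the strand is not in the tables and either end was taken, a looser rule than that behind the 58.0%. AID_aux against AID_ctrl, 1 of 186 regions was lost (0.538%, against 2.36% of all regions), at RAD21L1, and 4 were gained (2.15%, against 2.58%), at STAG2, HDAC8, SMC1B and ZNF143. Those genes encode the alternative to STAG1, the SMC3 deacetylase, a meiotic ring arm and a zinc-finger factor of promoters.

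AID_wash against AID_aux lost 4 of 188 regions at 3 genes (2.13%, against 3.48% of all regions) and gained 2 (1.06%, against 1.21%). AID_wash against AID_ctrl lost 2 of 177 (1.13%, against 2.67%) and gained 1 (0.565%, against 0.685%). KO against WT lost 2 of 228 regions (0.877%, against 1.24% of all regions), at SGO1, which protects cohesin at centromeres, and at YY1, and gained 29 (12.7%, against 19.5%) at 15 genes. STAG2 had the most changed calls of the 18, with 1 region gained in AID_aux against AID_ctrl, 2 lost in AID_wash against AID_aux, 1 lost in AID_wash against AID_ctrl and 5 gained in KO against WT. MAZ followed with 5 changed calls and ZNF143 with 4. STAG1 and STAG2 are the alternative subunits. In AID_aux against AID_ctrl, STAG1 had 2 losses among 12 regions and STAG2 had 1 gain among 9. Over all regions 2.36% were lost and 2.58% gained. At STAG1, 2 regions split the AID_aux pair (16.7%, against 20.9% of all regions) and 2 the AID_ctrl pair (16.7%, against 18.8%), as many as were lost. No difference between these genes is read from counts this small, and none was tested.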

How the data were processed

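ATAC-seq peak lists of 10 DLD-1 libraries were used. Per the submitters' processing notes, the tools were MACS2 2.1.1, Bowtie2 2.4.2, Trim Galore 0.6.10 and Picard, on hg38; there is a peak list per library. The 6 degron lists hold a deposited fold enrichment ratio and a deposited −log10 p per summit, both the authors' own values, used to describe and rank peaks within a list. The KO and WT lists hold 500-bp windows alone, so no loss or gain was counted between the degron line and them; their calls were set side by side by overlap. Autosomal and X peaks were merged, with a minimum overlap of 1 bp, in Python 3.11.15 with pandas 2.3.3 and numpy 2.4.6, and the counting was tested on simulated lists. Gene coordinates and promoters came from RefSeq on GRCh38.p14, and 8 of 9 genes matched a promoter. Read depth is unknown, so counts of regions carry no counting interval. With 2 libraries a group, no test was made; shares over all regions stand beside those of the 9 genes. Genes and lists were chosen with earlier results of these data known. The text names all 9 genes, each start, the most significant other region called in all 6 degron lists, up to 5 lost and 5 gained regions per comparison and the pathway genes with most changed calls; regions beyond that rule were named after their values were seen. Alternatives were 50% cover of the region, fixed windows, other locus sizes, equal list lengths, the upper 50% of peaks and each library left out. A result for 1 marker gene is not reported here.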

Additional observations from a re-analysis of the deposited data

How the results depend on the processing

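Counts of changed regions at the 9 genes are small and moved with the definition: of 44 alternatives that kept all libraries, 17 stayed within 1.5 times the reported count, and of 32 runs without 1 library, 7 did. In fixed 500-bp windows the counts lost and gained were 5 and 7 for AID_aux against AID_ctrl and 7 and 3 for AID_wash against AID_aux. They were 10 and 5 for AID_wash against AID_ctrl and 10 and 54 for KO against WT. Each window was classed on its own, so a window at the edge of a retained or mixed region can also count as lost or gained. The shares over all windows of the genome were not counted. With peaks covering at least 50% of the region, AID_aux against AID_ctrl lost 4, AID_wash against AID_aux lost 6 and gained 2, and AID_wash against AID_ctrl gained 0. In gene bodies alone, AID_aux gained 0, AID_wash against AID_aux lost 1, AID_wash against AID_ctrl lost 1 and gained 0, and KO gained 7. With 100 kb on either side, AID_aux gained 2, AID_wash against AID_aux lost 4 and KO gained 39. At equal list lengths AID_wash against AID_ctrl gained 2. Among peaks in the upper 50% of both calling lists, AID_aux lost 1, the STAG1 region, and gained 0, and both AID_wash comparisons lost 0 and gained 0; the AID_wash value at STAG1 in replicate 1 is below that limit. The 41 regions called in all 10 libraries became 68 in fixed windows, 4 with 50% cover, 16 in gene bodies and 67 with 100 kb, settings added after the data were seen. Causes beyond these constructions were not tested.

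Leaving out each library in turn lets a change rest on 3 libraries and cannot lower a count. AID_aux against AID_ctrl lost 3 to 7 (7 without AID_ctrl replicate 2, 4 without AID_aux replicate 1 or AID_ctrl replicate 1) and gained 2 to 10 (10 without AID_aux replicate 2). AID_wash against AID_aux lost 3 to 9 (9 without AID_aux replicate 2) and gained 1 to 6 (6 without AID_wash replicate 1), and AID_wash against AID_ctrl lost 4 to 9 (9 without AID_wash replicate 2) and gained 2 to 9 (9 without AID_wash replicate 1). KO against WT lost 4 to 9 (9 without WT replicate 2) and gained 26 to 41 (41 without KO replicate 2, 38 without WT replicate 1). The regions called throughout numbered 41 to 47. No paired analysis was possible because the comparisons come from no test, only from counts of calls in 2 libraries a group. Depth is unknown, so a call missing from the shorter lists, WT replicate 2 above all, may lie just below the threshold.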

Other observations

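Regions at the 9 genes that KO gained over WT were in part called in the degron line as well, whose lists have another format. Of the 25 gained, 9 were called in all 6 degron libraries, 13 in both AID_ctrl libraries and 5 in no degron library. They lay mostly away from gene ends: 7 were inside the 9 genes and 1 was within 1 kb of a protein-coding gene's start or end. Of the 42 regions retained between KO and WT, 39 were called in all 6 degron libraries, 15 lay inside the 9 genes and 13 within 1 kb of such an end. Among the 59 called in some other mixture, 28 were in no degron library. The same shares over all gained, retained or mixed regions of the genome were not counted, so no trait of the 9 genes is read from these counts. The WAPL region inside the gene and the one at the far side of its window, both gained in KO, were called in both AID_ctrl libraries at low rank, between the 5.05 and 33.8 percentile.

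Over all 10 lists, 39 of the 137 regions at the 9 genes were called in a single library, against 43574 of 168719 over the genome. At STAG1, 10 of 22 regions were of that kind and 10 were called in KO or WT alone. At SMC3, 1 of 14 was called in a single library and 6 of 14 in all 10.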
